A study of Arabidopsis thaliana with 18 samples.

Results

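Transcripts were compared between 2 sets of Arabidopsis thaliana plants that had received only a surfactant, 0.02% silwet, with no salicylic acid (SA). The members are the silwet arrays whose titles carry the numbers 1, 2 and 3, set against those numbered 4, 5 and 6 and paired by the replicate number in the title, so 6 of the 18 arrays of the series. All 18 came from the accession Col-0 and were hybridised with biotin-labelled target from total RNA on the Affymetrix ATH1 array, on which a set of short probes (a probe set) stands for a transcript. The other arrays are silwet arrays 7, 8 and 9, and 9 arrays of plants given SA at 0.30 mM together with the same surfactant, numbered 10 to 18. Arrays 10, 11 and 12 and arrays 13, 14 and 15 are the SA triplets that follow the same order of numbers and serve here as the counterpart with SA.

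The labels give no tissue, plant age or harvest time, and they do not say what separates one triplet from the next. From what is known of the study, tissue was harvested at more than 1 time after treatment, but the labels do not tie arrays to times, so the triplets are called by their numbers. No label states whether the arrays of a triplet come from separate plantings. The p-values reflect only how far these samples scatter, and that scatter may be technical.

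Silwet is an organosilicone surfactant that lets an aqueous solution spread over the waxy leaf surface and enter stomata. Leaf cells react to wetting, touch and wounding with a calcium signal and with a fast, passing rise of transcripts for transcription factors, ubiquitin ligases and calmodulin-like proteins, many of which also respond to microbial elicitors. SA is the hormone of defence against biotrophic pathogens, and it induces chitinases, glucosyltransferases and other defence proteins.

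Values of array quality overlapped between the triplets. The median signal of the 6 arrays lay between 32.2 and 36.3, with a mean of 35.0 ± 1.47 on arrays 1 to 3 and 33.3 ± 1.34 on arrays 4 to 6 (SD, n = 3 each). A two-sided exact permutation test gave p = 0.2, where 20 splits allow no p under 0.1. The actin control has probe sets at both ends of the transcript, and their log2 ratio, 3 prime over 5 prime, a measure of RNA integrity, was 0.15 to 0.89 on arrays 1 to 3 and 0.51 to 1.43 on arrays 4 to 6 (exact p = 0.4). The GAPDH ratio, the ubiquitin ratio, the hybridisation spikes and the mean of the chloroplast-encoded probe sets gave exact p between 0.8 and 1, and over the 6 quantities every adjusted p was 1. As markers of green tissue, the photosystem I subunit gene PSAE-1 had signals of 2907 to 3475 on the 6 arrays, and the Rubisco activase gene RCA of 2421 to 3307. The root marker PYK10, a beta-glucosidase gene, had signals of 58.2 to 172, and no flower or seed marker could be named and tested.

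More probe sets were called higher than lower on the first silwet triplet. Of 13648 probe sets tested, 55 were called higher on arrays 1 to 3 than on arrays 4 to 6 and 6 were called lower (limma, Benjamini-Hochberg adjusted p under 0.05), which is 0.403% and 0.0440% of those tested. The 55 were higher by 0.70 to 3.21 on the log2 scale, with a median of 1.44, and 51 of them differed at least 2-fold. The 6 differed by -2.22 to -0.81, and 5 of them at least 2-fold. Every one of the 61 had the same sign in all 3 pairs, and the triplets did not overlap for 47 of the 55 and 5 of the 6, probe sets picked by the test on the same arrays. Over all tested probe sets, arrays 1 to 3 all lay above arrays 4 to 6 for 6.95% and all below for 6.35%. Over all tested probe sets the median difference was -0.0008, and 98% lay between the 1st percentile of -0.81 and the 99th of 1.15. At an unadjusted p under 0.05, limma found 1561 probe sets, 870 higher and 691 lower. The threshold alone corresponds to 682 over both directions together, to be set against the 1561. Which direction held more of these unadjusted results depended on how the arrays were scaled. With median centring limma found 617 higher and 1003 lower, and with quantile normalization 758 and 777.

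**Figure D1:**
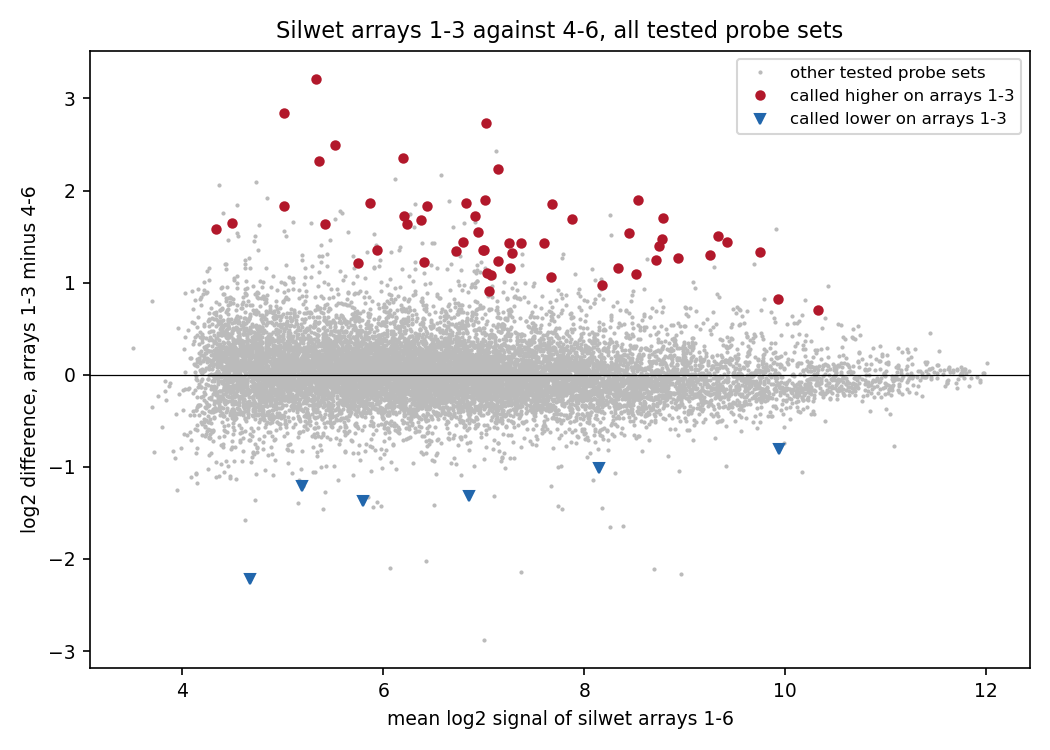
Log2 difference of silwet arrays 1 to 3 minus arrays 4 to 6 (vertical axis) against the mean log2 signal of the 6 arrays (horizontal axis), one point per tested probe set, with the 55 called higher in red and the 6 called lower in blue. The red points lie between 0.70 and 3.21 and occur at low and at high signal, and some grey points with larger differences than red ones did not pass the test.

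Leaving out any one of arrays 1 to 6 lost most of the calls. Without any one of arrays 1 to 6 in turn, the number called higher was 5, 2, 0, 1, 0 and 18, and the number called lower was 2 without array 1 and 0 without any other of the 6. In the fits with 0 higher calls, limma gave 562 higher probe sets at an unadjusted p under 0.05 without array 3 and 602 without array 5. In the 5 fits with 0 lower calls it gave 375 to 736 lower ones. Without arrays 7, 8 or 9, which only add to the estimate of the spread, 103, 45 and 68 were called higher and 23, 3 and 13 lower. The plot of calls by setting shows how the counts moved. With the 6 arrays alone, 173 were called higher and 54 lower, and these included all 61.

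**Figure D2:**
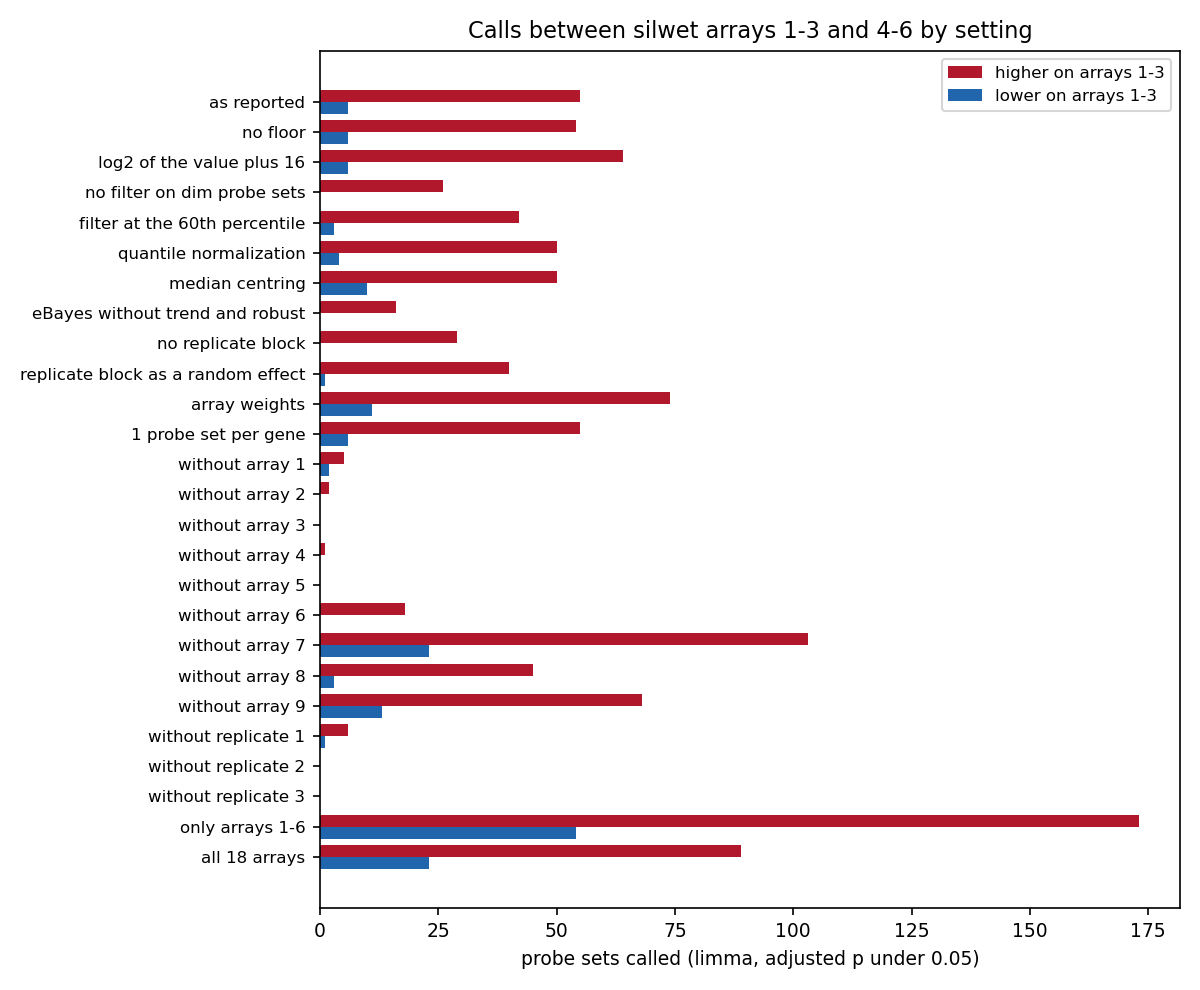
Number of probe sets called higher (red) or lower (blue) on silwet arrays 1 to 3 than on arrays 4 to 6 by limma at an adjusted p under 0.05 (horizontal axis) under each setting (vertical axis). The bars for fits without one of arrays 1 to 6 reach 0 to 18 higher calls, against 55 as reported and 173 with arrays 1 to 6 alone.

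Of the 55 higher probe sets, 28 name 1 gene, and of the 6 lower ones, 3 do. The genes below are given by what they encode, an order chosen after their values were seen. In whole-plant or whole-organ RNA, fewer cells that express a gene and less RNA per cell cannot be told apart.

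Genes for secreted defence proteins were among those higher on arrays 1 to 3. They were put together after their values were seen, and the other genes of these families were not counted. The chitinase-type genes AT1G02360 and AT2G43590, given with the SA list, were not called, and AT2G43590 had the lower mean on arrays 1 to 3. The chitinase gene AT2G43620, whose product cuts the chitin of fungal cell walls, had signals of 264, 488 and 293 on arrays 1, 2 and 3 and of 50, 42.9 and 60.6 on arrays 4, 5 and 6. Every array of the first triplet was thus far above every array of the second, and the log2 difference was 2.73 (standard error 0.38, limma adjusted p = 0.0360). A second chitinase gene, AT4G01700, had signals of 220, 260 and 263 against 120, 83.2 and 95.8. It differed by 1.32 (standard error 0.18, adjusted p = 0.0281), again with no overlap. AT3G22060 encodes a secreted protein with cysteine-rich repeats of the kind found in a large family of plant receptor kinases. Its signals were 246, 289.3 and 400 on arrays 1 to 3 and 56.7, 63.1 and 76.6 on arrays 4 to 6. The difference of 2.23 (standard error 0.15) had the smallest adjusted p of all tested probe sets, 0.00205, and of the 16 named genes tracked through the other settings it kept its call most often, in 21 of 25. AT5G48540, another gene of that secreted family, had signals of 461, 548 and 598 against 185, 261 and 324, a difference of 1.09.

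**Figure D3:**
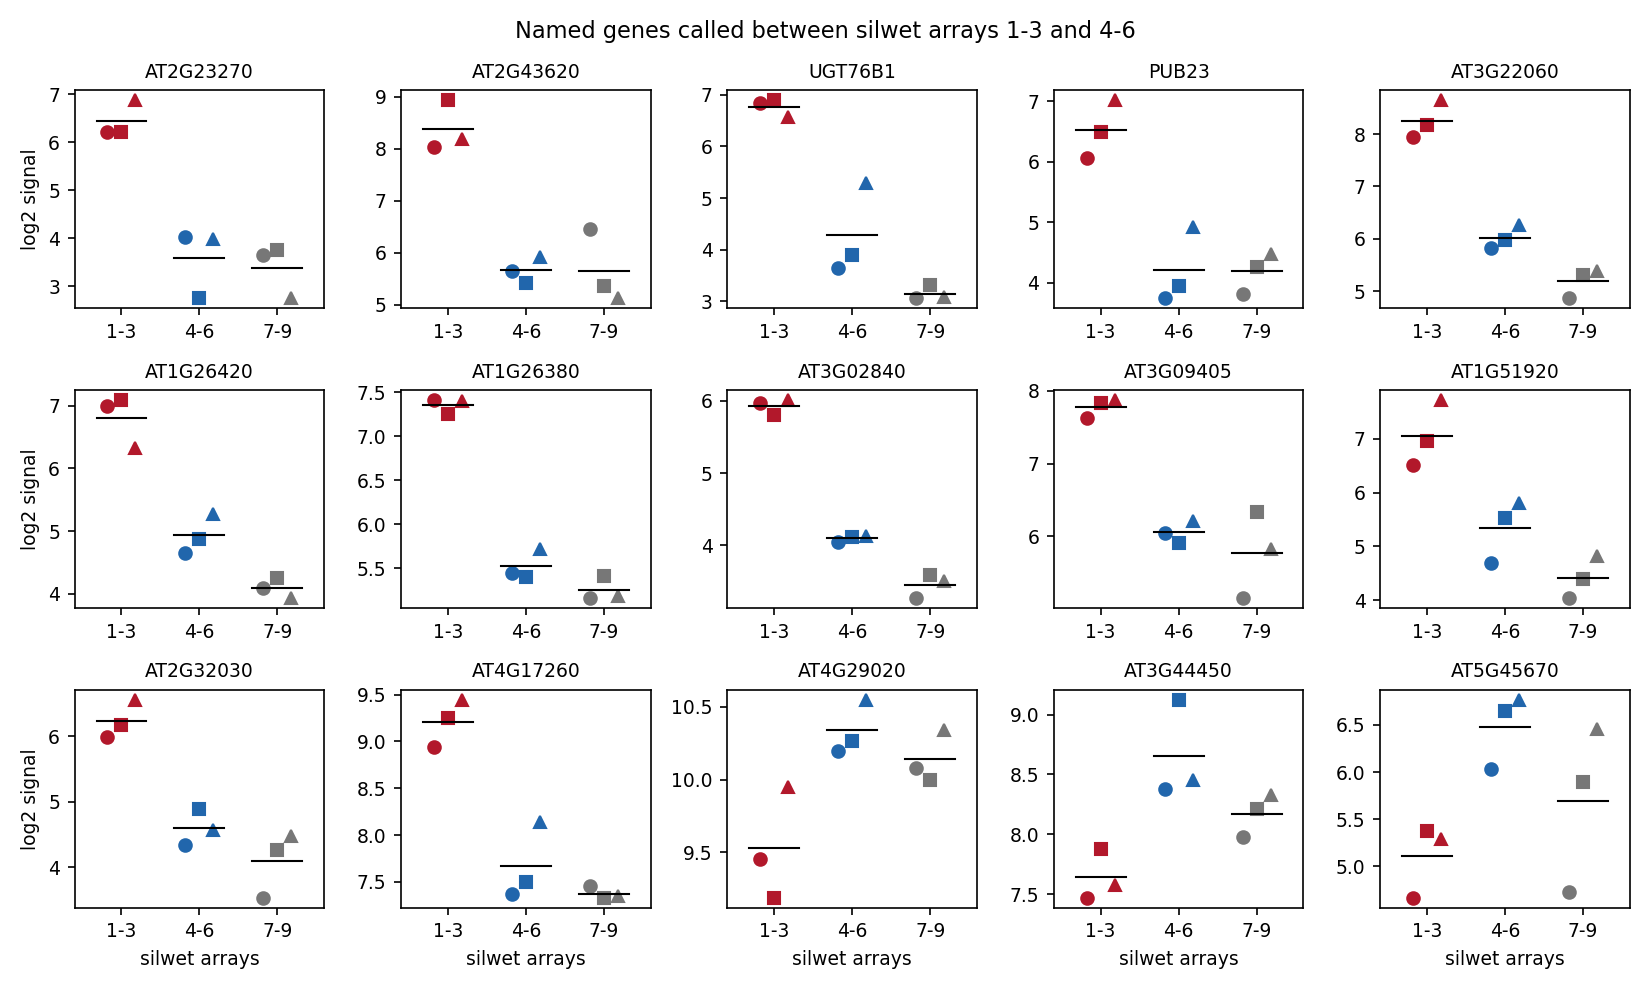
Log2 signal (vertical axes, each panel with its own range) of the 12 named genes with the largest positive differences among those called and the 3 named genes called lower, on silwet arrays 1 to 3 (red), 4 to 6 (blue) and 7 to 9 (grey). Circles, squares and triangles are replicate numbers 1, 2 and 3, and bars are triplet means; for all 15 genes shown the red and blue points do not overlap.

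AT1G26420, AT1G26380 and AT4G20830 encode oxidases of the berberine bridge enzyme family, flavoproteins that include makers of defence compounds. The family was not a list, and its other members were not counted. AT1G26420 had signals of 127, 136 and 79.9 on arrays 1 to 3 and of 25.1, 29.5 and 38.9 on arrays 4 to 6, a log2 difference of 1.86 (standard error 0.26, adjusted p = 0.0285). AT1G26380, a neighbouring gene by its locus number, had 170, 153 and 169 against 43.7, 42.3 and 52.9, with a difference of 1.83 (standard error 0.17, adjusted p = 0.00666). Arrays 1, 2 and 3 agreed closely for this gene, within a range of 153 to 170. AT4G20830 had 670, 577 and 698 against 309, 205 and 319, a difference of 1.25. Related family members share sequence, and how far the probe sets tell them apart was not tested.

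Further called genes act in signalling or on signal molecules, whereas the transcription factor genes WRKY53, STZ and BZIP60, given with their lists, did not pass. PUB23, a ubiquitin ligase that damps immune signalling, had signals of 66.6, 89.8 and 130 against 13.3, 15.3 and 30.4. It differed by 2.32 (standard error 0.21, adjusted p = 0.00666), and array 6 was the highest of the second triplet. UGT76B1, a glucosyltransferase that acts on SA and on the defence signal isoleucic acid, had 115, 119 and 95.2 against 12.6, 14.8 and 39.0. The difference was 2.50 (standard error 0.37, adjusted p = 0.0349), and array 6 again stood above arrays 4 and 5. AT3G02840, an armadillo-repeat gene of the kind induced early by fungal elicitors, had 62.3, 55.9 and 64.3 against 16.5, 17.4 and 17.5, a difference of 1.83 (standard error 0.21, adjusted p = 0.0153). Both triplets were tight for this gene. AT4G28140, which encodes a transcription factor of the AP2/ERF family, had 79.8, 48.4 and 142 against 25.7, 23.2 and 74.3, so that the triplets overlapped, with a difference of 1.21 (adjusted p = 0.0482). The receptor-type kinase gene AT5G25930 differed by 0.91, with 156, 205 and 188 against 82.7, 103 and 105.

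Metabolic and transport genes made up a further group. AT4G17260, the lactate dehydrogenase gene, which serves fermentation when oxygen is short, had signals of 491, 609 and 697 on arrays 1 to 3 and of 166, 181 and 282 on arrays 4 to 6. The difference was 1.54 (standard error 0.18, adjusted p = 0.0153), and the triplets did not overlap. The pectin acetylesterase gene AT3G09405 had 197, 228 and 234 against 66.2, 59.8 and 74.1, a difference of 1.72 (standard error 0.23, adjusted p = 0.0281). AT2G32030, an acetyltransferase gene, had 63.6, 72.4 and 94.3 against 20.3, 29.8 and 23.7, a difference of 1.64. Smaller differences were called for the methyltransferase gene AT4G22530 (1.35), the Sec14-type lipid transfer gene AT5G47730 (1.34), the oxygenase gene AT5G43450 (1.30), the phospholipid-flippase gene AT3G25610 (1.06) and the transporter gene AT2G39210 (0.97). AT1G52200, of a family of cysteine-rich membrane proteins, differed by 1.44, with 947, 1163 and 1302 against 354, 403 and 506.

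Hsp70-2 and AT3G09440 encode cytosolic Hsp70 chaperones, which hold and refold proteins under stress. They were put together after their values were seen, and the other Hsp70 genes were not counted. Hsp70-2 had signals of 247, 210 and 299 against 130, 57.7 and 105, a difference of 1.43 (standard error 0.23, adjusted p = 0.0420). AT3G09440 had 1649, 1464 and 1820 against 1152, 855 and 1042, a difference of 0.70, the smallest of the 55. Neither gene overlapped between the triplets.

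The remaining named genes are given without a role. AT2G23270 had the largest difference of any named gene, 2.84 (standard error 0.42, adjusted p = 0.0349), with signals of 73.7, 74.6 and 117 against 16.3, 6.74 and 15.8. AT1G51920 had 91.0, 124 and 211 against 26.0, 46.0 and 56.1, a difference of 1.72. AT1G19020, AT2G41730 and AT1G03660 differed by 1.47, 1.33 and 1.10. For AT2G41730 array 6, at 1002, was above array 1, at 964, and for AT1G03660 array 6, at 140, was above array 1, at 131. The largest difference of all, 3.21, belonged to the probe set 249770_at, which the annotation used here leaves unnamed, with signals of 159, 127 and 90.8 against 15.0, 10.9 and 14.1.

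The 3 named genes lower on arrays 1 to 3 differed by -1.37 to -0.81. AT3G44450 (BIC2), an inhibitor of the blue-light receptors called cryptochromes, had signals of 177, 235 and 191 on arrays 1 to 3 and of 332, 558 and 351 on arrays 4 to 6. It differed by -1.01 (standard error 0.16, adjusted p = 0.0420). AT5G45670, of the GDSL lipase family, had 25.3, 41.5 and 39.0 against 65.3, 100.4 and 109, a difference of -1.37 (standard error 0.23, adjusted p = 0.0489). AT4G29020, a glycine-rich protein gene, had 703, 583 and 987 against 1172, 1232 and 1495, a difference of -0.81 (standard error 0.12, adjusted p = 0.0331). None of the 3 overlapped between the triplets. They kept their call in 11, 9 and 11 of 25, 24 and 25 other settings.

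Among the gene lists, that of rapid stress, wound and touch genes holds 42 genes, of which 11 are named on the array and 9 were tested. It was chosen with earlier results of these data known, so its values are a description. All 9 tested members had positive differences, but only 2 of the 9 were called, PUB23 and AT3G02840. Of all tested probe sets, 0.403% were called higher. The list's median difference was 0.99, against -0.0008 over all tested probe sets. For 7 of the 9, arrays 1 to 3 all lay above arrays 4 to 6, as they did for 6.95% of all tested probe sets. WRKY53, a transcription factor gene of defence and leaf senescence, had signals of 302, 196 and 122 against 104, 94.3 and 66.1, a difference of 1.16 (standard error 0.28, adjusted p = 0.183). STZ (ZAT10), a zinc finger repressor gene of stress responses, had 389, 214 and 303 against 172, 151 and 144, a difference of 0.92 (standard error 0.23, adjusted p = 0.184). These 2 genes were separated on every array yet missed the threshold. The calmodulin-like genes CML38 and CML37, which bind calcium, differed by 1.05 and 0.77, and the transcription factor genes WRKY6 and WRKY22 each by 0.99. AT1G35210 had 43.3, 47.9 and 41.1 against 37.3, 35.2 and 17.3, a difference of 0.64 (adjusted p = 0.579). Both calls of the list were lost without array 2, 3, 4 or 5, and that of AT3G02840 without array 1 or 6. The median then stayed between 0.93 and 1.17.

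**Figure D4:**
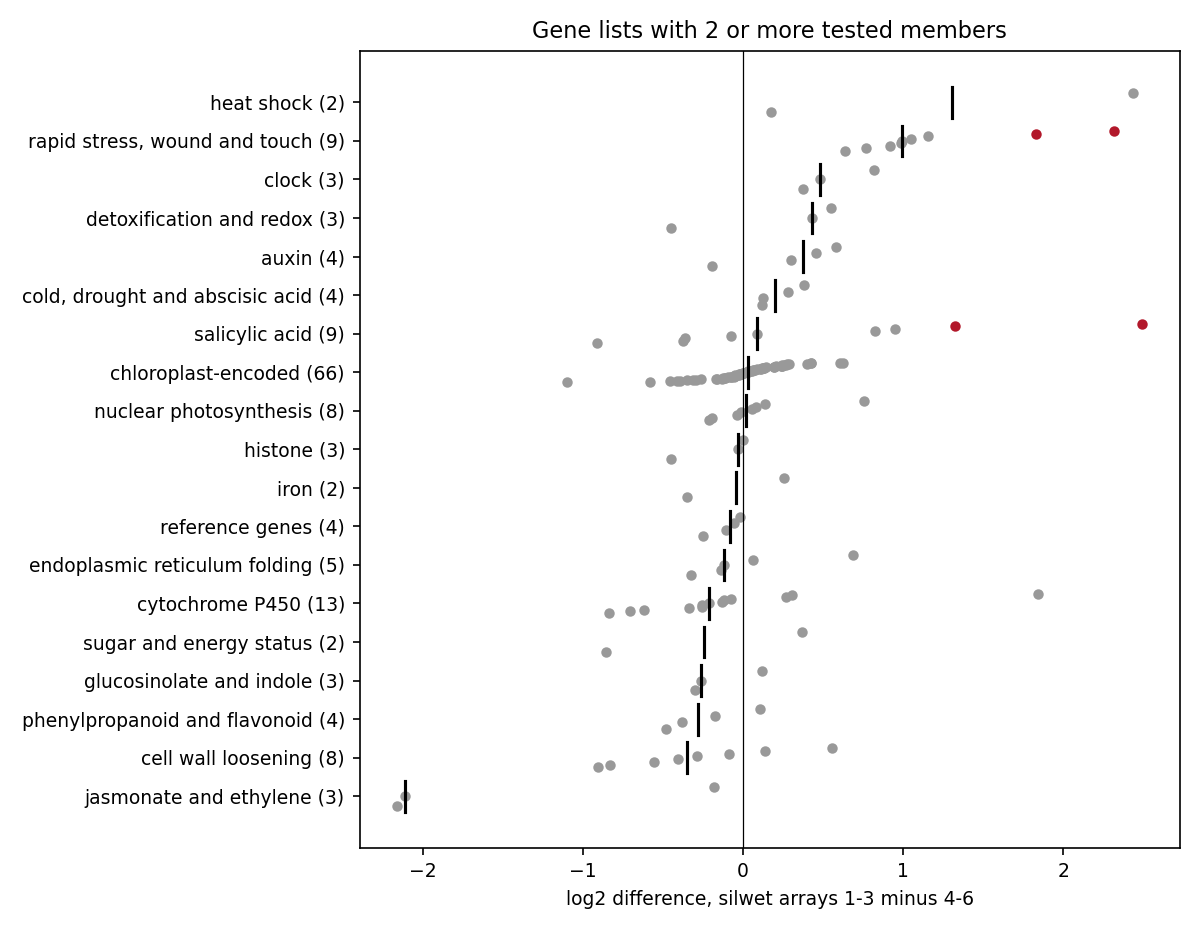
Log2 difference of silwet arrays 1 to 3 minus arrays 4 to 6 (horizontal axis) for each tested member of each gene list with 2 or more tested members (vertical axis, number tested in brackets). Points are probe sets, red if called higher, and bars are list medians; the 9 rapid stress members all lie right of 0, while the 66 chloroplast-encoded probe sets have a median of 0.03.

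The SA list did not move as one. Of its 9 tested members, UGT76B1 and AT4G01700 were called higher and none lower, where 0.403% of all tested probe sets were called higher. The list's median difference was 0.09. Another chitinase-type gene, AT1G02360, had signals of 54.0, 34.4 and 37.2 against 24.6, 15.9 and 24.7, a difference of 0.95 (adjusted p = 0.281). The glutaredoxin gene GRX480, which links SA to jasmonate responses, had 148, 40.8 and 158 against 51.1, 36.4 and 91.8, so that array 2 lay within the second triplet. AT5G52810 (SARD4), an enzyme gene of pipecolic acid synthesis, differed by 0.09, and AT3G48080, a paralogue of the immune regulator gene EDS1, by -0.07. The chitinase-type gene AT2G43590 differed by -0.91, with 114, 131 and 102 against 316, 414 and 76.5.

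The jasmonate and ethylene list had 3 tested members and no call. The defensin gene PDF1.2, a marker of that pathway, had signals of 153, 128 and 674 on arrays 1, 2 and 3 and of 1889, 2622 and 239 on arrays 4, 5 and 6. It was therefore lower on the first triplet in pairs 1 and 2 and higher in pair 3, and the mean difference of -2.16 had a standard error of 1.24 (adjusted p = 0.562). PDF1.2b gave the same picture, with 148, 107 and 495 against 1477, 1940 and 221. The PDF1.2 genes are close copies, and their probe sets may share transcripts. The thionin gene THI2.1 differed by -0.18.

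The lists of heat shock genes (2 tested), clock genes (3) and cold and drought genes (4) held 0 called members each; the 2 called Hsp70 genes above are not among the tested members of the first. AT5G51440, a mitochondrial small heat shock protein gene, had signals of 282, 569 and 213 against 24.3, 60.9 and 146, a difference of 2.43 (standard error 0.59, adjusted p = 0.219). AT5G48570, an immunophilin gene of the same list, differed by 0.18. Of 3 clock genes, COR27 had 676, 551 and 509 against 474, 222 and 330, a difference of 0.82 (adjusted p = 0.114), while AT4G33980 (COR28) and GI differed by 0.48 and 0.38. The cold and drought genes COR15A, COR15B, COR47 and LTI30 differed by 0.28, 0.12, 0.12 and 0.38. COR15A had 2659, 2429 and 3271 against 2242, 1798 and 2919, with overlap.

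Lists of housekeeping and growth functions held 0 called members each. The 66 tested chloroplast-encoded probe sets had a median of 0.03 and a range of -1.10 (petG) to 0.62 (psaA), and the 8 nuclear photosynthesis genes a median of 0.02. LHCB4.3, a light-harvesting protein gene, had the largest difference of these 8, 0.76 (adjusted p = 0.25). The 8 cell wall loosening genes had a median of -0.35, from -0.90 for the expansin gene EXPA8 to 0.56 for EXPA4. In the endoplasmic reticulum list of 5, with a median of -0.12, the gene of the unfolded-protein regulator BZIP60 had signals of 729, 569 and 831 against 392, 489 and 430, a difference of 0.69 (adjusted p = 0.179). The 13 cytochrome P450 genes had a median of -0.21, and CYP84A4 differed by 1.84 (adjusted p = 0.15), with 29.4, 47.9 and 61.1 against 8.14, 9.60 and 24.0.

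The smaller lists were auxin (4 tested, median 0.38), phenylpropanoid and flavonoid (4, median -0.28), glucosinolate and indole (3, median -0.26), detoxification and redox (3, median 0.43), histone (3, median -0.03), sugar and energy (2, median -0.24) and iron (2, median -0.05). The starch synthesis gene APL3 had signals of 68.7, 72.0 and 52.5 against 129, 121 and 98.1, a difference of -0.85 (adjusted p = 0.29). The auxin-conjugating gene WES1 (GH3.5) differed by 0.58 and the glutathione transferase gene GSTU20 by -0.45. Senescence had the single tested member SAG29, a sugar transporter gene, at 0.24 with a standard error of 1.27. The 4 reference genes, chosen in the field for steady levels, differed by -0.25 to -0.02.

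Silwet arrays 7, 8 and 9 place the second triplet. Over the 55 higher probe sets, the median of the triplet means on the log2 scale was 7.78 on arrays 1 to 3, 6.49 on arrays 4 to 6 and 5.95 on arrays 7 to 9. The 55 were chosen for being high on arrays 1 to 3 against arrays 4 to 6, so these values are a description and were not tested. AT3G22060 had signals of 29.0, 39.6 and 41.8 on arrays 7, 8 and 9, and UGT76B1 of 8.31, 9.90 and 8.45, both below every array of the second triplet. PUB23, at 14.1, 19.2 and 22.2, lay within the range of the second triplet. AT1G52200, at 132, 250 and 207, was below it.

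Most of these transcripts also differed between the corresponding SA triplets, which share no array with the comparison above. The comparisons are still not independent. Probe sets with a low mean over all 18 arrays had been left out. High signal on SA arrays 10 to 12 could therefore help a dim transcript to be tested. The fit that gave the SA calls also estimated the spread from silwet and SA arrays together. How far these links raised the number of shared calls was not tested. Between SA arrays 10 to 12 and 13 to 15, 2312 probe sets were called higher on the first of these triplets, 16.9% of those tested, and 2660 lower, 19.5% (limma, adjusted p under 0.05, in a fit of all 18 arrays). Of the 55 probe sets higher with silwet alone, 54 were also called higher with SA, by a median of 2.27 over the 55, and of the 6 lower ones, 4 were also called lower. The exception among the 55 was 257985_at, unnamed here, which differed by 0.37 with SA and 1.36 with silwet. RNA integrity differed on 1 of these SA arrays: the log2 actin ratio was 6.85 on array 10, against 0.45 to 1.03 on arrays 11 to 15. Its log2 GAPDH ratio was 3.36, against -0.06 to 0.31, and its log2 ubiquitin ratio 0.93, against 0.11 to 0.69. The mean log2 of its chloroplast-encoded probe sets was 6.67, against 8.64 to 9.03. Without array 10, 54 of the 55 were again called higher with SA.

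**Figure D5:**
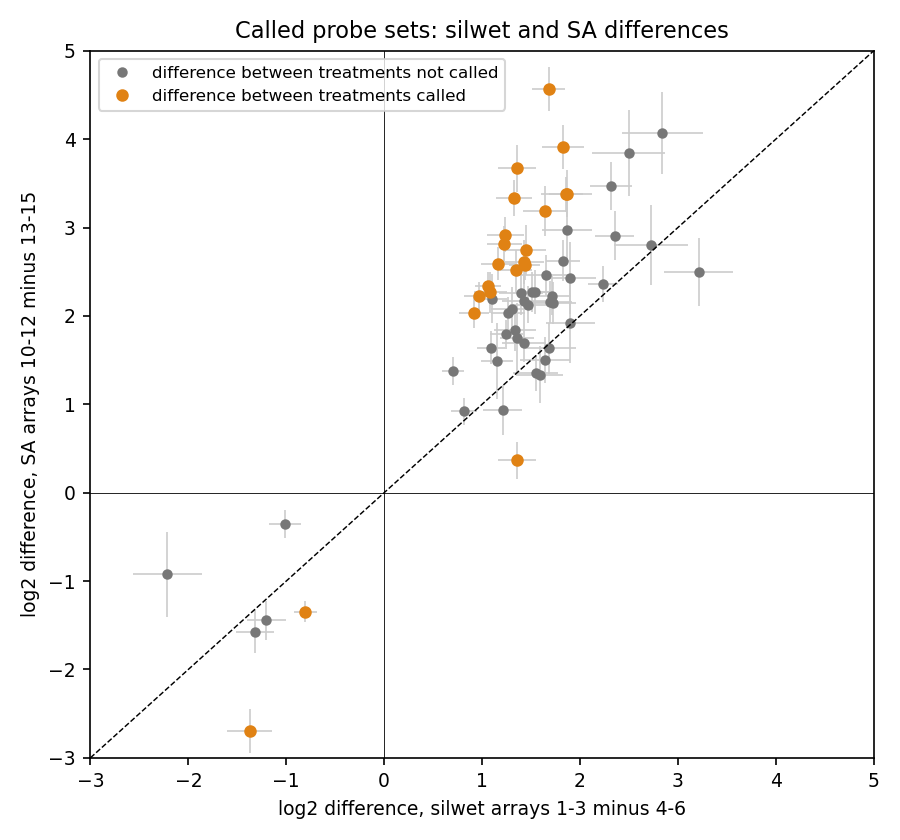
Log2 difference between SA arrays 10 to 12 and 13 to 15 (vertical axis) against that between silwet arrays 1 to 3 and 4 to 6 (horizontal axis) for the 61 called probe sets, with standard errors in grey and a dashed line of equal differences. Orange points are those for which the 2 differences were called unequal; 18 of the 55 probe sets higher with silwet have a larger difference with SA.

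The difference between triplets was larger with SA for some of these genes and not distinguishable for others. The test of the silwet difference minus the SA difference called 2061 of the 13648 probe sets (limma, adjusted p under 0.05), of which 1019 (7.47%) had the higher signed difference with silwet and 1042 (7.63%) with SA. A signed difference is also higher with silwet where a transcript was lower on the first triplet by a larger amount with SA. The first of these counts was 667 without SA array 14, and the 2 counts were 576 and 655 without replicate number 1, 148 and 329 without number 2, and 236 and 288 without number 3. Among the 55, 18 differed more with SA, 1 differed more with silwet and 36 were not called. The 55 were chosen for their silwet difference, which is part of this contrast, so these counts are a description. Without replicate numbers 2 and 3 in turn, 7 and 6 of the 55 differed more with SA, and without array 10 it was 23. AT3G02840 had signals of 166, 163 and 203 on SA arrays 10, 11 and 12 and of 10.4, 9.43 and 16.4 on arrays 13, 14 and 15, a log2 difference of 3.91. Its silwet difference was smaller by 2.08 (standard error 0.35, adjusted p = 0.00136). AT4G01700 had 532, 621 and 538 against 56.3, 50.9 and 60.3, and its silwet difference was smaller by 2.01 (adjusted p = 0.000517). AT1G26420 and AT2G32030 also differed more with SA, by 3.38 and 3.19, than with silwet.

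For other genes the 2 treatments gave close values. AT3G22060 had signals of 208, 377 and 255 on SA arrays 10 to 12 and of 52.7, 40.2 and 69.6 on arrays 13 to 15, a difference of 2.36 with SA against 2.23 with silwet. AT2G43620 differed by 2.80 with SA against 2.73 with silwet, with 187, 586 and 233 against 67.2, 32.7 and 34.3. For both genes the lowest of SA arrays 10 to 12 was array 10, the array with the log2 actin ratio of 6.85. How close the values are without array 10 was not tested. The standard errors of silwet minus SA were 0.29 and 0.65 for these 2 genes (adjusted p = 0.813 and 0.957), which does not show that the treatments act alike. UGT76B1 reached 1152, 1468 and 1235 on SA arrays 10 to 12, above every silwet array, and 51.0, 101 and 139 on arrays 13 to 15. Its difference was 3.84 with SA against 2.50 with silwet, a gap with a standard error of 0.69 (adjusted p = 0.218). Among the lower genes, AT5G45670 differed by -2.70 with SA and -1.37 with silwet (adjusted p of the gap = 0.0182), and BIC2 by -0.35 and -1.01 (adjusted p of the gap = 0.0701).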

How the data were processed

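The authors deposited 1 linear intensity for each probe set and array, the signal of MAS5 per the submitters' processing notes, which give no version. Every array had been scaled alike: its mean intensity, with 2% trimmed at each end, was 100.0. All 18 columns were used. Of 22810 probe sets, 64 are controls, 13513 name 1 gene in the platform annotation supplied (13436 matched an NCBI gene table, 77 kept the annotation's symbol), 503 name several and 8794 are unnamed here.

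Before taking log2, each array was floored at its 20th percentile, 5.53 to 6.66 on arrays 1 to 3 and 4.89 to 5.4 on arrays 4 to 6. The floor understates differences of transcripts that fall under it on some arrays. As it was higher on arrays 1 to 3, a transcript at the floor on all 6 arrays gets a positive difference. Of the 55 probe sets called higher, 1 had a floored value on arrays 1 to 6. Control probe sets and those with a mean log2 value over the 18 arrays under the 40th percentile were left out, leaving 13648, of which 53.9% name 1 gene. The 9 silwet arrays were fitted with limma 3.58.1 in R 4.3.3 (lmFit, eBayes with trend and robust) by triplet with the replicate number as a block, which left 4 residual degrees of freedom. P-values were Benjamini-Hochberg adjusted over all 13648 with a threshold of 0.05. Silwet and SA differences were compared in a fit of all 18 arrays with the same block. Array quality values were compared by exact permutation. The fits were tested on simulated data.

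The replicate numbers pair the arrays, as judged from the data: deviations from the triplet means correlated at 0.477, 0.365 and 0.26 for the same number on arrays 1 to 3 and 4 to 6, and at -0.352 to 0.028 for different numbers. No 2 arrays correlated above 0.978, so none was counted as a copy.

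Members, lists, rules and tests were chosen with earlier results of these data known. The rule named, among genes with 1 probe set annotation, the 12 largest called differences in each direction, the 2 members of each list that had the smallest p, and some fixed genes. Other genes were named after their values were seen, among them the further called genes and the further list members. For a gene with several probe sets the one with the highest mean stood for it. There were 27 lists. Chloroplast genes were found by chromosome, and P450 and histone genes by symbol. The lists of nitrogen, phosphate and sulfur, cuticle and wax, aquaporin, cell cycle, flower and seed, and mitochondrion-encoded genes had 0 tested members. Alternatives tried were a scale with no floor, a pseudocount of 16 in its place, a filter at the 60th percentile or none, median centring, quantile normalization, eBayes without trend and robust, no block or a random one, array weights, 1 probe set per gene, other sets of arrays in the fit, and each array or replicate number left out.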

Additional observations from a re-analysis of the deposited data

Results flagged for a closer look

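For 12 named genes the difference between the first and second triplet was not the same with silwet as with SA (limma, test of the silwet difference minus the SA difference over all 18 arrays, adjusted p under 0.05). This test called 15.1% of all tested probe sets, so calls are common. The silwet difference was lower than the SA difference for 8 of them. It was lower by a log2 value of -2.19 for AT1G35210, -2.08 for AT3G02840, -2.01 for AT4G01700 and -1.96 for WRKY53. Smaller gaps were found for AT2G32030 (-1.55), AT1G26420 (-1.52), AT5G07340 (CNX2, an endoplasmic reticulum chaperone gene, -0.87) and BZIP60 (-0.87). For the other 4 the silwet difference was the higher one, by 1.32 for AT5G45670, 1.08 for BCAT4, a gene of methionine-derived glucosinolate synthesis, 0.98 for COR15B and 0.54 for AT4G29020. CNX2 had opposite signs in the 2 treatments, with -0.33 for silwet and 0.55 for SA, as had COR15B, with 0.12 and -0.86. Neither silwet difference was called (standard errors 0.16 and 0.11, limma adjusted p = 0.477 and 0.713). The silwet triplets overlapped for both genes, so the sign of their silwet difference is not settled. Some of the 12 were named for their silwet difference, which is part of the contrast. They are therefore given gene by gene and not as a result about the named genes as a set.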

How the results depend on the processing

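The counts of calls depended on the fit, and the cause was not tested unless named. Without the filter on dim probe sets 26 were called higher, 14 of them shared with the 55, and 0 lower. Many dim values then sit at the floor, which was 5.53 to 6.66 on arrays 1 to 3 and 4.89 to 5.40 on arrays 4 to 6, and 4422 were higher at an unadjusted p under 0.05 (727 lower). With eBayes run without both its trend and robust options 16 were higher and 0 lower (limma, 617 lower unadjusted). With no replicate block 29 were higher and 0 lower (472 lower unadjusted), and 615 had the higher signed difference with silwet than with SA; as a random block the replicate number gave 1 lower. The number lower was 3 with the filter at the 60th percentile, 10 with median centring and 11 with array weights. The stricter filter removed both called rapid stress genes, leaving 0 called. With arrays 1 to 6 alone 173 were higher and 54 lower, 5 of them rapid stress genes, and with all 18 arrays 89 and 23, which included 48 of the 55 and all 6. No floor, log2 of the value plus 16, quantile normalization and 1 probe set per gene gave 50 to 64 higher and 4 to 6 lower.

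With 1 array or replicate number left out, 0 to 103 were called higher and 0 to 23 lower. Without replicate numbers 1, 2 and 3 in turn it was 6, 0 and 0 higher (limma, 519 and 517 higher unadjusted for the last 2). The rapid stress list had 0 to 3 calls and a median of 0.93 to 1.17. Probe sets with the higher signed difference with silwet numbered 148 to 1075, and those with the higher one with SA 288 to 1082. The gap in median signal was 0.82 to 3.21. The counts over the 55 in both treatments, added after seeing the data, were 49 to 54 and 6 to 23. No result changed sign past the threshold. Of the named genes' values under these alternatives, 1196 stayed on their side of the threshold, uncalled ones moving by less than 1 SD. A further 12 also stayed uncalled but moved by 1 SD or more, while 164 lost a call and 14 gained one. The 16 named called genes had the same sign throughout, a sign that their choice largely fixes. The number of arrays limits the precision.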
